A study of Caenorhabditis elegans with 45 samples.

Results

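RNA-sequencing of whole *C. elegans* adults of the sterile GEM strain was compared between day 2 of adulthood (65 and 73 h, 3 libraries each) and day 1 (41 h with 3 libraries and 49 h with 2), 11 of the 45 libraries in the series. Every GEM library comes from worms carrying *gon-2(q388)ts* and *gem-1(bc364)*, grown at 25 °C from the first larval stage. The comparison strain, FEM, carries *fem-3(q20)ts* and was sampled at the same ages, with 5 libraries on day 2 and 6 on day 1. Without *gon-2*, a TRPM-family channel gene, the gonad primordium often fails to proliferate, and *gem-1* encodes a solute carrier that modifies this defect, whereas the *fem-3* allele is a gain of function that commits the germline to sperm. Animals of both strains ate *E. coli* HT115 with the empty vector L4440, and the earliest age falls at the last molt. The methods state that loss of the gonad in GEM is incompletely penetrant, that some animals form a late or degenerate gonad, and that visibly fertile worms were removed by hand before harvest. A GEM library is therefore a pool of animals without and with some germline, plus the somatic tissues that all share, and in such bulk RNA fewer cells of a type and less RNA per cell cannot be told apart.

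The adult hermaphrodite germline starts at a stem cell pool, passes through meiosis, makes sperm first and then switches to oocytes, which are packed with maternal mRNA for the embryo. Over the same days the intestine begins to secrete yolk lipoproteins, the vitellogenins, while the epidermis stops the burst of collagen and secreted matrix gene expression that accompanies each molt. The comparison asks which of these transcripts changed over the first days of adulthood in a strain chosen for having little or no gonad.

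Values below are log2 of the normalized count plus 1, and a change is the mean of the 65 and 73 h means minus the mean of the 41 and 49 h means. The day 2 libraries held an estimated 12794134 to 22858932 assigned reads and the day 1 libraries 16255010 to 40337177. Genes with at least 1 read numbered 16670 to 17836 per day 2 library and 16845 to 18619 per day 1 library. By distance (1 minus Pearson's r over genes), the 10 pairs of replicates lay 0.0126 to 0.0218 apart, the 15 pairs of the same day but another age 0.012 to 0.0363, and the 30 pairs of a day 2 with a day 1 library 0.0298 to 0.116. Of the libraries, 2 were looked at further, after seeing the data. GEM 49 h replicate 1 was further from the 41 h libraries than GEM 49 h replicate 2 in molting transcripts (list means of 8.60 and 10.26, against 11.12 to 11.35 at 41 h). GEM 73 h replicate 2 had the highest oocyte and meiotic levels and was the only one of the 11 libraries with all 8 early zygotic embryo genes above 0. It also had the most estimated reads on day 2 (22858932), and *tbx-35*, 1 of the 8 genes, rests there on 1 read. Counts without both of these libraries are given for all genes and beside some of the lists.

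The strain genes themselves gave 3 different patterns. *gon-2* (WBGene00001651, chromosome I, 8549513 to 8570998, WBcel235) lay at 10.72 to 10.96 in day 2 libraries and at 10.42 to 11.11 in day 1 libraries, so the groups overlapped. Its change of 0.10 ± 0.10 (SE) did not pass the test (adjusted p = 0.368). *gem-1* (WBGene00008214, chromosome X, 13371542 to 13376992) lay at 6.82 to 7.53 on day 2 and 5.92 to 7.03 on day 1, a rise of 0.64 ± 0.18 (adjusted p = 0.00223) that was not past the threshold against 49 h alone (0.27). A mutation need not alter transcript level, so these values do not check the genotype. *fem-3* (WBGene00001413, chromosome IV, 9104966 to 9107607), whose product promotes sperm fate, had 6.72, 5.48, and 6.59 at 65 h and 7.36, 8.37, and 7.21 at 73 h, against 4.43, 3.78, and 4.05 at 41 h and 3.82 and 4.54 at 49 h. All day 2 libraries lay above all day 1 libraries, and the rise was 2.82 ± 0.24 (adjusted p = 9.52e-12). In FEM animals the same gene changed by 0.19 (adjusted p = 0.548).

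Across the transcriptome, 9971 of the 16925 genes tested changed between day 2 and day 1 in GEM (58.9%). Transcripts that rose numbered 6474 (38.3%) and those that fell 3497 (20.7%), at an adjusted p under 0.05 (limma, Benjamini-Hochberg). Rises thus made up 64.9% of the calls, a share that was 53.8% once every library was centered on its median (5402 rose, 4633 fell), since the median change of all genes was 0.21 as deposited and 0.03 after centering. Without GEM 49 h replicate 1 and GEM 73 h replicate 2, 5491 genes rose and 3307 fell. Every day 2 library lay above every day 1 library for 2803 genes (16.6%) and below for 1763 (10.4%). Rises were more numerous at moderate size, with 1707 genes up and 893 down by at least 2 log2 units, whereas 211 rose and 464 fell by at least 4. In FEM, 4619 genes rose (27.3%) and 3201 fell (18.9%), of which 481 and 748 moved by at least 2.

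Genes of the oocyte list were low in GEM on day 1 and had the highest median change of the germline lists. Of 12 oocyte regulators and yolk uptake genes, 11 rose and 1 fell, with a median change of 4.72, against a median of 0.21 for all genes. *puf-5* (chromosome II, 8575541 to 8577787), an RNA-binding translational repressor of growing oocytes, had 10.17, 8.60, and 10.20 at 65 h and 10.76, 11.79, and 10.66 at 73 h, against 3.77, 3.90, and 2.29 at 41 h and 5.45 and 6.64 at 49 h. The lowest day 2 library was above the highest day 1 library, and the rise was 5.68 ± 0.35 (adjusted p = 8.83e-15). Its relative *puf-6*, which shares reads with the near-identical *puf-7*, rose by 5.24 ± 0.34. The yolk receptor *rme-2* had 7.88 to 11.01 on day 2 and 3.26 to 6.29 on day 1, and the oocyte maturation factors *oma-1* and *oma-2* rose by 4.34 and 5.07. The member that fell, *etr-1*, an RNA-binding protein also made in muscle, changed by -0.31 with overlapping libraries, a call lost without GEM 49 h replicate 2 or without GEM 73 h replicate 1, when no member fell (0). Named here after its values were seen, *lin-41*, which keeps oocytes from maturing early and is also an epidermal timing gene, had 8.18 to 11.05 on day 2, against 8.90, 8.51, and 7.16 at 41 h and 6.49 and 7.70 at 49 h, and its groups overlapped.

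Eggshell and maternal transcripts behaved alike. Of 13 eggshell and egg activation genes 12 rose, all 12 with every day 2 library above every day 1 library, with a median of 4.57. *cpg-1* (chromosome III, 4489359 to 4491392), a chitin-binding proteoglycan of the eggshell, had 12.10, 10.47, and 12.16 at 65 h and 12.61, 13.86, and 12.62 at 73 h, against 6.03, 5.89, and 4.26 at 41 h and 7.24 and 8.63 at 49 h. It rose by 5.64 ± 0.35 (adjusted p = 8.83e-15), and *perm-4*, needed for the permeability barrier of the eggshell, by 5.89 ± 0.35. The 13 eggshell genes together took 0.322 to 0.690% of the normalized counts on day 2 and 0.0114 to 0.0608% on day 1. Maternal factors that pattern the embryo rose in 13 of 14 cases, with a median of 3.86. Among them the CCCH zinc finger gene *pos-1* had 8.76 to 12.25 on day 2 and 3.68 to 6.71 on day 1, and *mex-6* rose by 5.31 ± 0.36 (adjusted p = 5.79e-14). *meg-1*, a disordered protein of embryonic P granules, was at 6.25 to 9.49 on day 2, against 0 in all 41 h libraries and 2.47 and 3.27 at 49 h.

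Earlier germline stages rose as well, by less. All 25 genes of the meiotic chromosome axis, synapsis and recombination rose, 23 of them with no overlap between libraries, with a median of 2.65. *htp-2*, a HORMA domain protein of the axis, had 7.92, 6.45, and 7.72 at 65 h and 8.43, 8.89, and 7.66 at 73 h, against 4.10, 2.16, and 2.70 at 41 h and 4.23 and 5.77 at 49 h, a rise of 3.85 ± 0.28 (adjusted p = 3.91e-13). *dsb-1*, required for meiotic double-strand breaks, rose by 3.56 ± 0.30. All 12 P granule and germline small RNA genes rose (median 2.34), among them the Vasa-like helicase gene *glh-2* with 7.18 to 9.46 on day 2 and 2.70 to 6.35 on day 1. Of 10 genes of stem cell maintenance and meiotic entry 9 rose (median 2.64). *gld-1*, a translational repressor that promotes meiosis and oogenesis, had 10.20 to 12.94 on day 2 and 5.97 to 9.15 on day 1, and *daz-1* rose by 3.55 ± 0.32 (adjusted p = 3.89e-11).

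Cell cycle genes, which dividing somatic cells use too, had a higher day 1 level and a different course. DNA replication genes rose in 15 of 18 cases (median 1.08), or 12 without GEM 49 h replicate 1 and GEM 73 h replicate 2, but only 2 of the 15 separated the day 2 from the day 1 libraries. *mcm-7*, a subunit of the replicative helicase, had 9.65, 8.15, and 9.23 at 65 h and 10.40, 11.04, and 9.75 at 73 h, against 7.86, 7.42, and 7.39 at 41 h and 6.69 and 7.75 at 49 h. Mitosis and centrosome genes rose in 19 of 20 cases (median 1.65), with *cyb-3*, a B-type cyclin, at 9.26 to 12.45 on day 2 and 7.10 to 8.83 on day 1. At 49 h against 41 h the medians of these lists were -0.61 and -0.50, with 4 DNA replication and 2 mitosis genes falling and none rising. At 65 h against 49 h they were 0.88 and 1.32, and at 73 h against 65 h 1.1 and 1.09, when all 18 and all 20 genes rose.

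**Figure D1:**
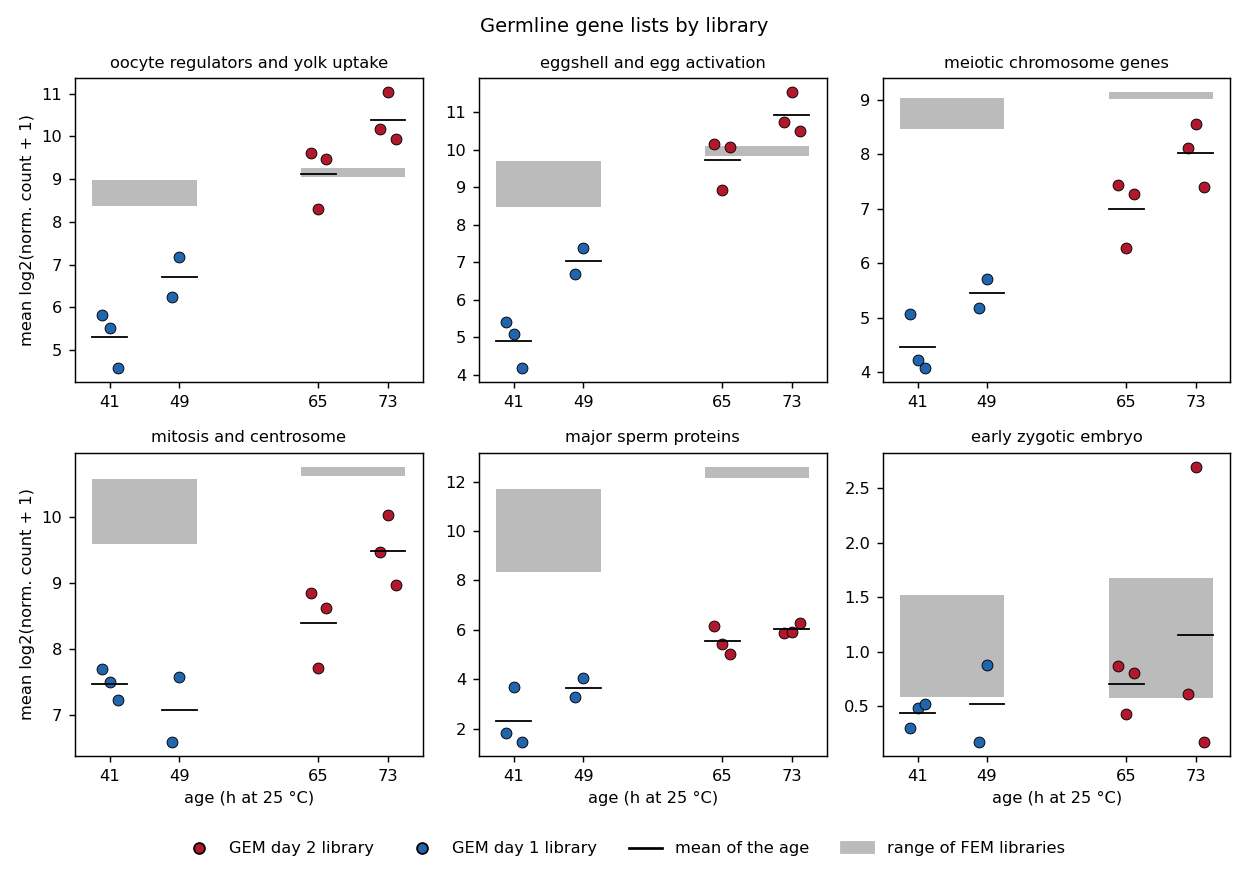
Mean log2(normalized count + 1) over the genes of 6 lists, with each GEM library as a point (red for day 2, blue for day 1), age in hours on the horizontal axis, a line at the mean of each age and a grey band for the range of FEM libraries of that day. The oocyte list reached 8.30 to 11.03 in GEM day 2 libraries, above all 5 GEM day 1 libraries (4.58 to 7.17). Major sperm protein genes lay at 5.04 to 6.27 in GEM on day 2, above the 1.44 to 4.05 of GEM day 1 but below every FEM library.

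The changes can be set along the 4 ages, which share libraries between successive comparisons. The ages are unevenly spaced, and the second step, from 49 to 65 h, is the longest, so counts and medians are not rates. At 49 h against 41 h 2017 genes rose (11.9%) and 1366 fell (8.07%), at 65 h against 49 h 3226 rose (19.1%) and 1706 fell (10.1%), and at 73 h against 65 h 1792 rose (10.6%) and 153 fell (0.904%). The last of these splits depends on scaling, since centering the libraries on their medians gave 891 rises and 611 falls. Eggshell genes rose in 11 of 13 cases at the first step (median 2.30), in 12 at the second (2.97), and in 8 at the third (1.38). Meiotic genes rose in 14 of 25 cases at the first step, 24 at the second, and 19 at the third, with medians of 1.1, 1.57, and 1.05. The list of P granule genes had medians of 1.1, 1.45, and 1.01. Each of these lists had its highest median at the second step, which spans the most hours. The medians therefore gave no order between the lists. Within each age of day 2 the libraries were spread, with oocyte regulators at 9.61, 8.30, and 9.46 at 65 h and 10.18, 11.03, and 9.93 at 73 h.

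Sperm transcripts also rose, at levels below those of FEM on both days. Of 31 major sperm protein genes, which encode the cytoskeletal and signaling protein of nematode sperm and share near-identical sequences, 28 rose, with a median of 3.05 and changes from 0.00 to 4.38. Their list mean was 6.17, 5.44, and 5.04 at 65 h and 5.88, 5.91, and 6.27 at 73 h, against 1.83, 3.70, and 1.44 at 41 h and 3.26 and 4.05 at 49 h. In FEM libraries the same list mean was 12.15 to 12.61 on day 2 and 8.35 to 11.72 on day 1. No member rose or fell at 73 h against 65 h, in contrast to 27 that rose at 65 h against 49 h. Other sperm genes rose in 15 of 20 cases and 1 fell (median 1.41), with 2 falls without GEM 41 h replicate 2 and 0 without GEM 49 h replicate 1 and GEM 73 h replicate 2. *spe-11*, a sperm-supplied factor for the embryo, had 5.54 to 7.78 on day 2 and 0.84 to 5.09 on day 1, and *gsp-3*, a sperm protein phosphatase whose reads may be split with *gsp-4*, rose by 2.95 ± 0.31 (adjusted p = 6.75e-10).

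Of 14 sex determination genes 9 rose (median 0.66), and under centering 7 rose and 2 fell, while 6 rose without GEM 49 h replicate 1 and GEM 73 h replicate 2. The rises of over 1.5 were those of *fem-3*, *fog-1*, *fog-2*, *fog-3*, and *xol-1* (2.82, 1.67, 2.39, 1.69, and 1.90). *fog-2*, which permits sperm in hermaphrodites, had 5.32 to 7.85 on day 2 and 3.52 to 5.14 on day 1. *tra-2* changed by 0.20 and *fem-1* by -0.05, neither past the test. Somatic gonad genes rose in 3 of 8 tested cases (37.5%, near the 38.3% of all genes) and 1 fell (median 0.39). The falls numbered 2 without GEM 49 h replicate 1 and 0 without GEM 49 h replicate 2. *inx-8*, an innexin of the gonadal sheath that couples it to oocytes, had 8.69, 7.55, and 7.07 at 65 h and 8.50, 9.31, and 8.58 at 73 h, against 3.85, 5.06, and 3.68 at 41 h and 5.83 and 5.94 at 49 h, a rise of 3.24 ± 0.29. Its partner *inx-9* rose by 1.32 ± 0.27 with overlapping libraries, whereas the distal tip cell ligand gene *lag-2* and the sheath gene *lim-7* changed by -0.11 and 0.16, neither past the test.

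Transcripts of the early zygotic embryo had low list means with a single exception. The mean of 8 early zygotic genes was 0.87, 0.43, and 0.81 at 65 h and 0.61, 2.70, and 0.17 at 73 h, against 0.30, 0.49, and 0.52 at 41 h and 0.17 and 0.88 at 49 h. The value of 2.70 belongs to GEM 73 h replicate 2, where *pes-10* was at 3.55, *tbx-38* at 2.77, and *tbx-35* at 0.98, each at 0 in the other day 2 libraries. The same library had the highest oocyte, eggshell, and mitosis levels. Only 3 members passed the filter, and of these *tbx-37*, a T-box gene of the early blastomeres, rose (1.37 to 3.95 on day 2, 0.00 to 0.49 on day 1). With GEM 73 h replicate 2 and GEM 49 h replicate 1 left out, 11 oocyte regulators, 12 eggshell genes, and 25 meiotic genes rose, with medians of 4.38, 4.15, and 2.37.

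Yolk protein genes took up a larger share of the transcriptome on day 2. The 6 vitellogenins, which encode the yolk lipoproteins secreted by the intestine, took 14.4, 13.2, and 10.5% of normalized counts at 65 h and 14.2, 13.5, and 14.7% at 73 h, against 0.0357, 0.147, and 0.0469% at 41 h and 5.89 and 2.1% at 49 h. All 6 rose, with a median of 5.33 and changes from 2.92 to 6.52. *vit-5* (chromosome X, 3403471 to 3408603) had 18.11 to 18.90 on day 2, against 7.04, 11.48, and 7.18 at 41 h and 16.69 and 14.69 at 49 h. On the log2 scale the larger part came at the first step, with a median of 6.14 at 49 h against 41 h, 2.17 at 65 h against 49 h, and 0.19 at 73 h against 65 h, when none of the 6 changed. Members of the family share near-identical stretches, and *vit-4* overlaps 150 exonic bases of F59D8.3, so single-gene values are uncertain.

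**Figure D2:**
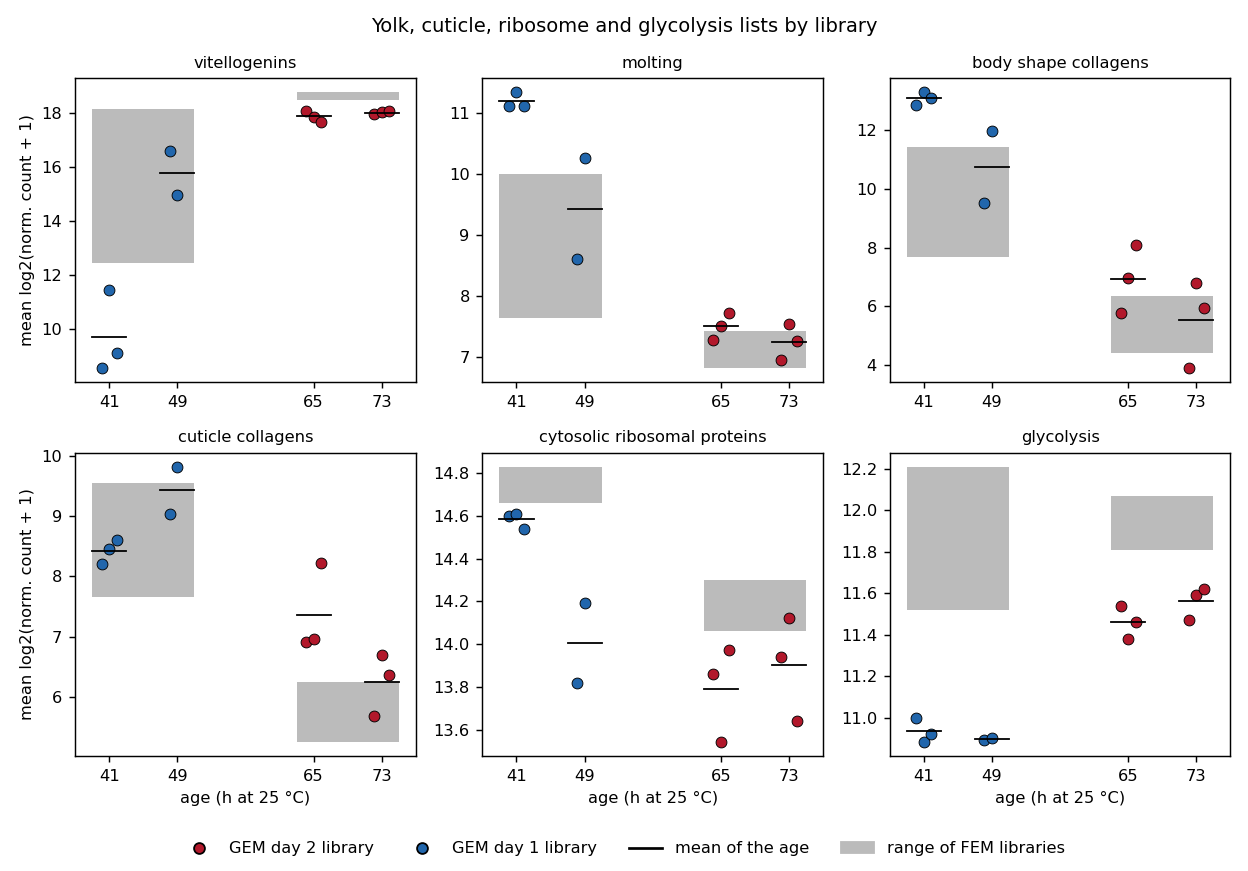
Mean log2(normalized count + 1) over the genes of 6 lists by age in hours, with GEM day 2 libraries in red, GEM day 1 libraries in blue, a line at each age mean and the FEM range in grey. Vitellogenins reached 17.67 to 18.09 on day 2 against 8.55 to 16.61 on day 1, while body shape collagens dropped to 3.90 to 8.09 on day 2 against 9.53 to 13.28 on day 1.

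Genes of cuticle building and molting included the largest falls. Of 19 collagens with body shape mutants 17 fell and none rose, all 17 with every day 2 library below every day 1 library, and the median was -6.58. *bli-2* (chromosome II, 5651394 to 5652434), a cuticle collagen whose mutants blister, had 1.99, 6.10, and 7.76 at 65 h and 0.00, 5.38, and 3.39 at 73 h, against 13.40, 14.15, and 14.41 at 41 h and 10.45 and 12.71 at 49 h. It fell by 8.68 ± 1.2 on the log2 scale (adjusted p = 1.94e-07). *sqt-1* and *rol-6*, collagens whose mutants roll, had changes of -7.56 and -7.46. These 19 genes took 0.00534 to 0.0990% of normalized counts on day 2 and 0.336 to 2.94% on day 1.

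The whole collagen family did not move one way. Of 157 *col* genes 137 were tested, of which 87 fell and 31 rose, with changes from -8.01 to 8.09 and a median of -3.20. *col-117* had 5.51, 4.59, and 6.67 at 65 h and 0.00, 3.13, and 0.00 at 73 h, against 9.69 to 12.87 on day 1. In the opposite direction *col-95* (chromosome III, 11703994 to 11705091) had 15.58 to 17.49 on day 2, against 4.03, 8.97, and 4.31 at 41 h and 12.26 and 10.13 at 49 h, a rise of 8.09 ± 0.57 (adjusted p = 2.12e-13). *col-36* rose by 6.08 ± 0.67. In FEM *col-95* and *col-36* rose by 5.96 and 5.7, and neither difference between the strains passed the test. As a share of normalized counts the family took 10.3 to 15.2% on day 2, within the 4.34 to 15.2% of day 1, where the 41 h libraries lay at 4.34 to 5.21%. Against 49 h alone 16 members rose and 88 fell.

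Other genes of the molt fell with the collagens. Molting genes fell in 14 of 17 cases and 1 rose (median -3.33). *mlt-9* had 4.52, 5.24, and 6.43 at 65 h and 3.65, 5.45, and 4.07 at 73 h, against 11.66, 12.23, and 12.03 at 41 h and 8.38 and 10.81 at 49 h. *qua-1*, a hedgehog-related protein needed for molting, changed by -5.55 ± 0.39 (adjusted p = 1.69e-13). Hedgehog-related genes, a family expanded in nematodes and made largely in epidermis, fell in 30 of 45 tested cases and rose in 7 (median -2.40), or in 4 without GEM 49 h replicate 1 and GEM 73 h replicate 2. *grl-5* was at 0.00 to 6.45 on day 2 and 8.71 to 12.58 on day 1, and *grd-2* at 0 in 4 of 6 day 2 libraries and at 6.45 to 9.84 on day 1. Patched-related genes fell in 14 of 24 cases and rose in 5, with *ptr-4* changing by -5.08 ± 0.38. *glf-1*, a sugar mutase used in cuticle glycans, *osm-8*, a mucin-like epidermal protein, and *lips-9*, of the lipase-like class, changed by -7.55, -7.53, and -7.43. The genes known by sequence names T06G6.6 and C14A4.9, which shares 100 exonic bases with *srv-2*, changed by -8.09 and -7.87. For each gene named as falling here or among the collagens, GEM 49 h replicate 1 was the lowest day 1 library, and without it and GEM 73 h replicate 2 the same number of body shape collagens (17) and 15 molting genes fell.

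The largest rises outside these lists lay partly in a single stretch of chromosome IV. F56D6.9 (3892327 to 3893326), F56D6.8 (3894058 to 3894430), and *dct-8* (3895070 to 3895506) lie beside each other and rose by 8.93 ± 0.54, 8.70 ± 0.62, and 8.14 ± 0.48. In FEM they rose too, by 7.17, 7.47, and 6.43, and no difference between the strains passed the test. *dct-8*, of the class named for *daf-16* targets that affect germline tumors, had 7.50, 8.32, and 8.66 at 65 h and 9.46, 9.38, and 8.60 at 73 h, against 0.92, 2.16, and 0.00 at 41 h and 0.00 at 49 h in both libraries. F56D6.9 shares 237 of its 948 exonic bases with *oac-21*, and reads there cannot be assigned to either. The 3 genes rose at 65 h against 49 h (8.38, 8.26, and 8.16) and changed by 1.23, 1.07, and 0.99 at 73 h against 65 h. *dct-7*, on the same chromosome, rose by 6.31 ± 0.31 (adjusted p = 9.68e-17). *ule-1*, *ule-5*, and *ule-3*, of a class named for protein in the uterine lumen, rose by 6.64, 6.59, and 6.22, with *ule-3* at 11.27 to 13.82 on day 2, against 3.45, 7.69, and 2.51 at 41 h and 8.89 and 8.51 at 49 h.

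A few genes were detected on a single day. At 0 in all 5 day 1 libraries and at 3 or more reads in each of the 6 day 2 libraries were 11 genes, led by R04D3.2 (3.77 to 7.16), *spp-12* (4.27 to 6.04), C50E3.12 (3.17 to 6.62), and the T-box gene *sea-1* (2.15 to 6.77). The reverse held for 42 genes, led by *spp-7*, which was at 5.06 to 7.76 on day 1, and by T22D1.18 and D1014.6. *spp-7* and *spp-12* belong to the saposin-like family of membrane-acting peptides. No fold is given for these genes because a group is at 0.

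Protein synthesis genes were lower on day 2. Of 76 cytosolic ribosomal protein genes 60 fell and 2 rose (median -0.51), and of 63 mitochondrial ribosomal protein genes 52 fell and none rose (median -0.62). The cytosolic set took 6.28 to 8.20% of normalized counts on day 2, against 14.5 to 15.1% at 41 h and 9.11 and 10.5% at 49 h. At 49 h against 41 h 63 cytosolic and 31 mitochondrial members fell, and at 65 h against 49 h 13 and 23 did. With 49 h alone as day 1, which leaves 2 day 1 libraries, 17 cytosolic and 18 mitochondrial members fell. Without GEM 49 h replicate 1 and GEM 73 h replicate 2, 72 and 57 fell. The 2 that rose were *rpl-11.1*, a paralog of *rpl-11.2*, at 11.61 to 13.69 on day 2 and 10.11 to 11.37 on day 1, and *rpl-42*, which was near 0 throughout. *mrps-14* had 7.75 to 8.30 on day 2 and 8.81 to 9.94 on day 1, a change of -1.32 ± 0.15 (adjusted p = 2.1e-09). Of 33 proteasome genes 14 fell and 1 rose, a count that moved to 24 falls without GEM 49 h replicate 1, 6 without GEM 49 h replicate 2, and 8 without GEM 73 h replicate 3. It was 26 without GEM 49 h replicate 1 and GEM 73 h replicate 2 and 29 after centering. The riser, *rpn-6.2*, a paralog of a lid subunit gene, had 6.97 to 7.55 on day 2 and 5.27 to 6.26 on day 1.

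Glycolysis and oxidative phosphorylation genes were called mostly in opposite directions. Glycolysis genes rose in 14 of 19 cases and none fell, with a median of 0.25, near the 0.21 of all genes. After centering 5 rose (median 0.08). The rises over 1 were those of *gpd-4*, *gpd-1*, and *pfk-1.2* (2.81, 2.08, and 1.62). *gpd-4* and *gpd-1*, near-identical glyceraldehyde-3-phosphate dehydrogenase genes, had 6.62 to 9.25 and 7.49 to 10.06 on day 2 and 4.57 to 5.83 and 5.96 to 7.55 on day 1. Oxidative phosphorylation genes fell in 15 of 25 cases and 1 rose (median -0.32), with 2 rises without GEM 49 h replicate 2, and 4 fell against 49 h alone. *nuo-2*, a complex I subunit, changed by -0.61 ± 0.10, whereas *asb-1*, 1 of a pair of ATP synthase subunit b genes, had 9.06 to 11.02 on day 2 and 8.77 to 9.16 on day 1 and rose by 1.09 ± 0.19 (adjusted p = 7.61e-06). Its paralog *asb-2* changed by -0.32. TCA cycle genes fell in 4 of 20 cases (20.0%, near the 20.7% of all genes), with citrate synthase, *cts-1*, changing by -0.69 ± 0.10, and 10 fell after centering. None rose, against 1 without GEM 49 h replicate 1 or without GEM 49 h replicate 2.

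**Figure D3:**
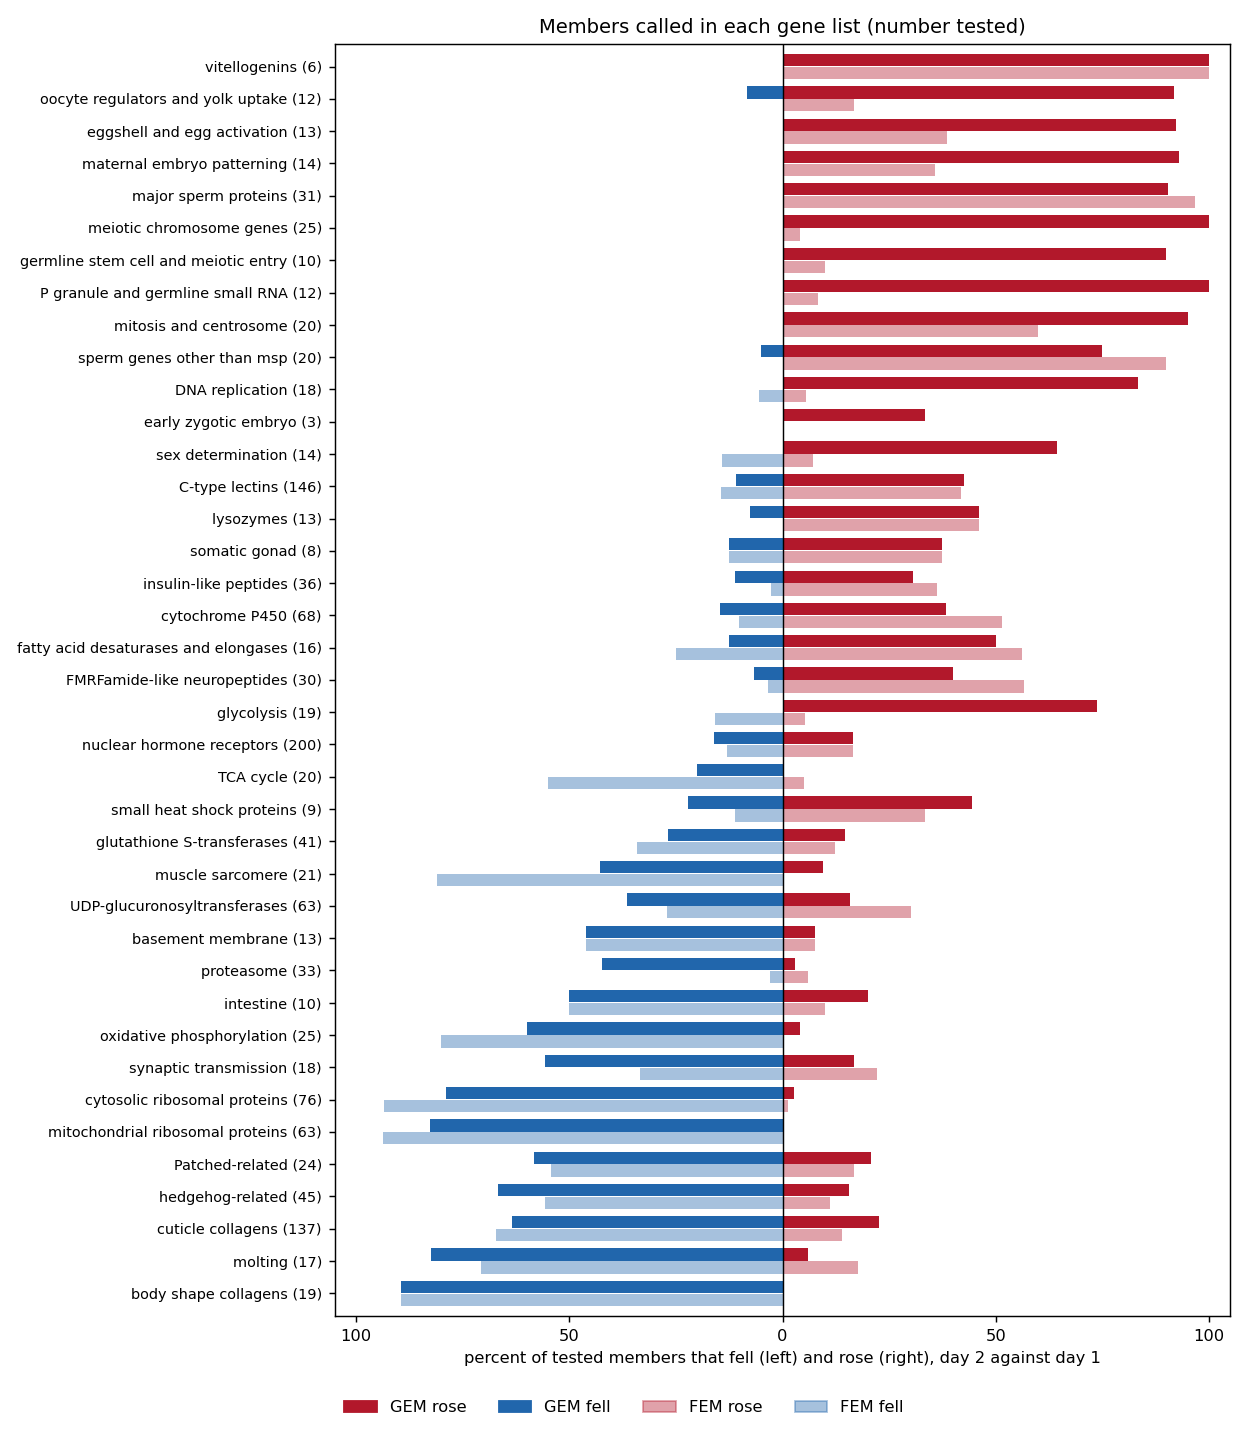
Percent of the tested members of each of 39 gene lists that rose (right, red) or fell (left, blue) on day 2 against day 1, in GEM (dark bars) above FEM (light bars), with the number tested in parentheses. All 25 meiotic chromosome genes rose in GEM and 1 did in FEM, whereas all 6 vitellogenins rose in both strains and 17 of 19 body shape collagens fell in both.

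Somatic tissue lists other than FMRFamide-like peptides (median 0.25) had medians below 0, against 0.21 for all genes. Falls made up 42.9% of muscle, 55.6% of synaptic, 46.2% of basement membrane, and 50.0% of intestinal genes, against 20.7% of all genes. Of 21 muscle sarcomere genes 9 fell and 2 rose (median -0.22, and 12 falls with no rise after centering, and 1 rise without GEM 49 h replicate 1), among them the pharyngeal myosin gene *myo-1* at 10.81 to 11.97 on day 2 and 12.23 to 12.97 on day 1. Of 18 synaptic genes 10 fell and 3 rose (median -0.33), with 1 rise without GEM 49 h replicate 1 or after centering and 3 falls against 49 h alone. *cat-2*, the tyrosine hydroxylase of dopamine neurons, changed by -1.21 ± 0.34, and *unc-47*, the vesicular GABA transporter, by -0.79 ± 0.30. The call for *unc-47* was lost without GEM 41 h replicate 2, GEM 49 h replicate 2, GEM 65 h replicate 3, or GEM 73 h replicate 1 (-0.70, -0.73, -0.64, and -0.59). Of 30 FMRFamide-like peptide genes 12 rose (40.0%, near the 38.3% of all genes) and 2 fell, with 7 rises after centering, 0 falls without GEM 49 h replicate 1, and 1 fall without GEM 41 h replicate 1, GEM 65 h replicate 2, GEM 73 h replicate 2, or GEM 73 h replicate 3. The list was led by *flp-28* (11.15 to 11.25 on day 2 and 9.57 to 10.59 on day 1, a rise of 1.07 ± 0.12). Basement membrane genes fell in 6 of 13 cases and rose in 1, with the perlecan gene *unc-52* at 12.41 to 13.49 on day 2 and 13.53 to 14.15 on day 1. Among 10 intestinal genes 5 fell and 2 rose, or 1 without GEM 41 h replicate 2. *pept-1*, the gut peptide transporter, changed by -1.85 ± 0.21, while *cpr-1*, a cathepsin B-like protease, had 12.58 to 14.41 on day 2 and 11.74 to 13.19 on day 1 and rose by 1.40 ± 0.44, a call lost without GEM 49 h replicate 2 (1.04, when 0 of the 10 genes rose).

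Secreted defense and detoxification families were mixed, where 38.3% of all genes tested rose and 20.7% fell. C-type lectins rose in 62 and fell in 16 of 146 tested cases (median 0.53), and the 42.5% that rose lay near the 38.3% of all genes, with the largest changes downward, *clec-230* at -6.25 and *clec-180* at -5.37. Lysozyme genes rose in 6 of 13 cases (46.2%) and 1 fell. *lys-7* had 15.03, 14.76, and 14.61 at 65 h and 15.57, 15.00, and 14.60 at 73 h, against 10.52, 10.66, and 11.12 at 41 h and 12.70 and 11.15 at 49 h, and *ilys-3* rose by 3.21 ± 0.67. In FEM *lys-7* and *ilys-3* rose by 3.82 and 2.59, and neither difference between the strains passed the test. Cytochrome P450 genes rose in 26 and fell in 10 of 68 cases, and the 38.2% that rose matched the share of all genes. UDP-glucuronosyltransferases rose in 10 and fell in 23 of 63, and glutathione S-transferases rose in 6 and fell in 11 of 41 (11 rose without GEM 49 h replicate 1). *cyp-29A4* rose by 4.83 ± 0.35, *ugt-57* changed by -3.99 ± 0.61, and *gst-17*, which shares 351 exonic bases with *gst-18*, by -2.67 ± 0.53. Of 9 small heat shock protein genes 4 rose (44.4%) and 2 fell (22.2%), with *hsp-12.3* at 6.52 to 7.03 on day 2 and 2.51 to 5.63 on day 1. Nuclear hormone receptor genes, of which 33 rose and 32 fell among 200, had a median of -0.02, a split that depends on scaling, since 23 rose and 51 fell after centering and 26 rose and 54 fell under quantile normalization. Among 16 desaturases and elongases 8 rose (50.0%) and 2 fell (1 fell without GEM 49 h replicate 1). Among 36 insulin-like peptide genes 11 rose (30.6%) and 4 fell (11.1%), with 2 falls without GEM 49 h replicate 2. After centering 7 insulin-like genes rose and 6 fell.

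The change in GEM was then set against the change in FEM over the same ages, in separate libraries. The GEM change was higher than the FEM change for 2917 genes (17.2%) and lower for 1487 (8.79%). Genes that rose in both strains numbered 3339, which is 51.6% of the GEM rises and 72.3% of the FEM rises. Genes that fell in both numbered 2259, or 64.6% of the GEM falls and 70.6% of the FEM falls. Of the GEM rises 2496 (38.6%) had a change higher than in FEM, and of the GEM falls 763 (21.8%) a change lower than in FEM. The GEM change that defines these genes also enters the difference, so shares above those of all genes were built in. Without GEM 49 h replicate 1 and GEM 73 h replicate 2, 2104 genes had a higher and 1393 a lower change in GEM.

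Most members of the oocyte, eggshell, maternal patterning, P granule, and meiotic lists had a higher change in GEM. For sex determination 5 of 14 genes did, and for the early zygotic embryo 0 of 3 tested. The GEM change was higher than the FEM change for 11 of 12 oocyte regulators, 12 of 13 eggshell genes, 12 of 14 maternal patterning genes, 11 of 12 P granule genes, and all 25 meiotic genes. The FEM medians of those lists were 0.46, 0.70, 0.47, 0.16, and 0.33. In FEM the level was already high on day 1, with oocyte regulators at 9.04 to 9.26 on day 2 and 8.36 to 8.97 on day 1. Eggshell genes in FEM lay at 9.82 to 10.1 on day 2 and 8.47 to 9.69 on day 1. The paper states that FEM animals make no oocytes, so a high level of these lists does not by itself mark oocytes. The difference was 4.85 ± 0.49 for *cpg-1* (adjusted p = 7.50e-09), 4.37 ± 0.49 for *puf-5*, and 3.80 ± 0.41 for *gld-1*. Major sperm protein genes rose in both strains (28 of 31 in GEM, 30 of 31 in FEM), with 5 higher and 3 lower in GEM. Vitellogenins rose in FEM too (median 3.11), and 5 of 6 had a higher change in GEM, where *vit-5* differed by 2.82 ± 0.65 (adjusted p = 0.00154). Their level was not higher in GEM. The list mean on day 2 was 17.67 to 18.09 in GEM and 18.48 to 18.77 in FEM. On day 1 it was 8.55 to 16.61 in GEM and 12.44 to 18.15 in FEM.

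**Figure D4:**
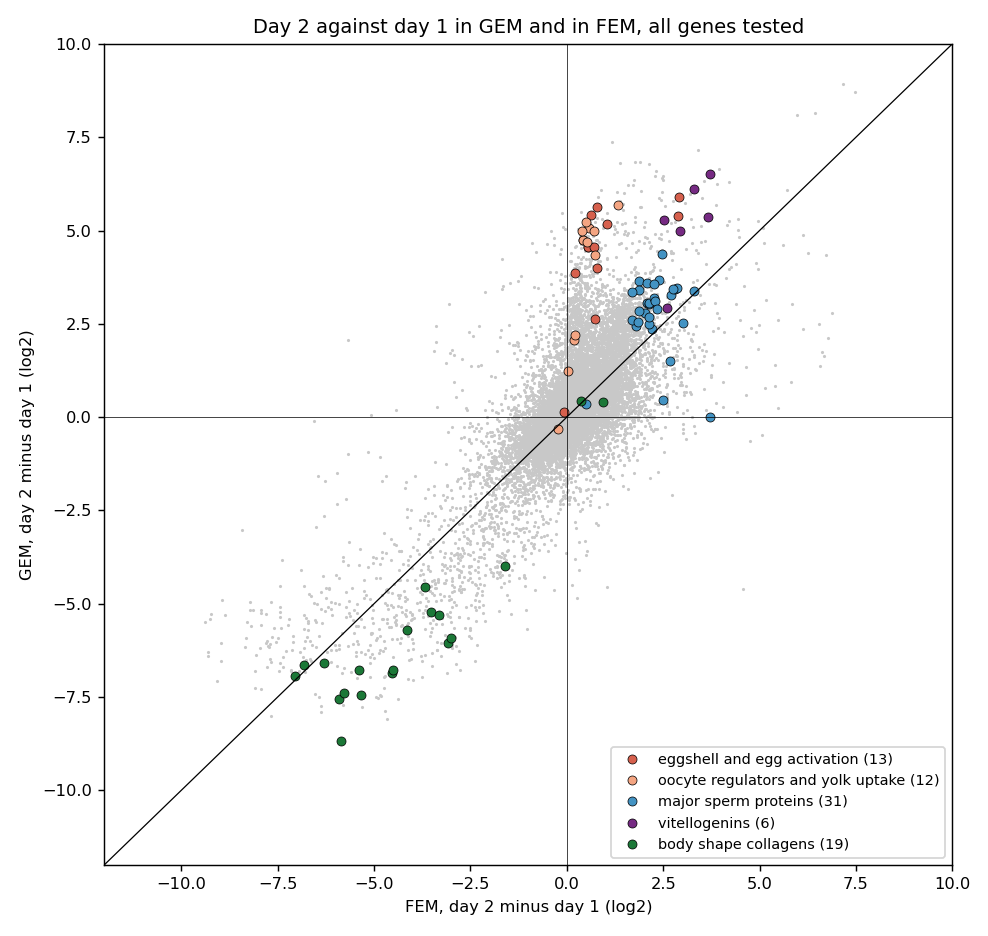
Change on day 2 against day 1 in GEM (vertical) against FEM (horizontal), in log2 units, with 1 grey point for each of 16925 genes, 5 lists in color and a diagonal line of equal change. Eggshell and oocyte genes lie between -0.22 and 1.32 on the FEM axis, except *perm-2* and *perm-4* (2.88 and 2.90), and reach 5.89 on the GEM axis, while 17 of 19 body shape collagens fell in both strains.

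Cuticle lists fell in both strains, while some genes went opposite ways. Body shape collagens fell in 17 of 19 cases in each strain (medians of -6.58 in GEM and -4.50 in FEM), with 2 lower in GEM. Molting genes had medians of -3.33 in GEM and -1.56 in FEM, and 11 of 17 had a lower change in GEM. Their list mean on day 1 was 8.60 to 11.35 in GEM and 7.63 to 10.00 in FEM. The GEM change was higher than the FEM change in 12 of 21 muscle genes and lower in none, with *tni-1*, a troponin I gene, changing by -1.38 in GEM and -2.59 in FEM. Genes that rose in GEM and fell in FEM numbered 112, and 110 fell in GEM and rose in FEM. *elo-4*, a fatty acid elongase whose exons partly overlap C40H1.10, changed by -2.35 in GEM (adjusted p = 4.40e-12) and 0.61 in FEM (adjusted p = 0.00977). Its GEM values were 5.44, 5.37, and 5.19 at 65 h and 5.96, 5.79, and 5.81 at 73 h, against 8.34, 8.63, and 9.55 at 41 h and 6.68 and 7.42 at 49 h.

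Other genes changed in GEM and did not pass the test in FEM, with a difference that passed. The nuclear hormone receptor gene *nhr-234* (chromosome II, 12636678 to 12638491) had 0.98 to 2.94 on day 2, against 7.91, 8.41, and 8.70 at 41 h and 3.87 and 5.42 at 49 h, and its change differed by -5.13 ± 0.59 from that in FEM (adjusted p = 5.65e-08). The insulin-like gene *ins-39* (chromosome X, 1343758 to 1344421) had 5.96, 4.65, and 3.72 at 65 h and 6.03, 5.89, and 5.22 at 73 h, against 0.00, 0.00, and 1.36 at 41 h and 0.87 and 0.78 at 49 h. It differed by 4.94 ± 0.86 (adjusted p = 5.21e-05), and *ins-35* by -3.58 ± 0.69. *cyp-31A2* (chromosome IV, 11403961 to 11406091), a cytochrome P450 used for the eggshell barrier whose reads may be split with *cyp-31A3*, had 5.81 to 8.93 on day 2 and 1.73 to 4.20 on day 1 and differed by 4.56 ± 0.39 (adjusted p = 6.80e-10).

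Rises were unevenly spread over chromosomes. On the X chromosome 24.5% of 2304 genes tested rose and 29.7% fell in GEM, against 40.6% and 19.4% of 14256 autosomal genes. In FEM 18.9% of X-linked genes rose and 29% fell, against 28.8% and 17.5% of autosomal genes. Under centering the GEM values were 18.4% and 38.2% on X, against 34.2% and 25.9% on autosomes. Among autosomes the share that rose ran from 35.3% on V to 44.6% on I. Yolk genes on X (*vit-5*, *vit-4*) were among the large rises, so X-linked genes were not uniformly lower.

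**Figure D5:**
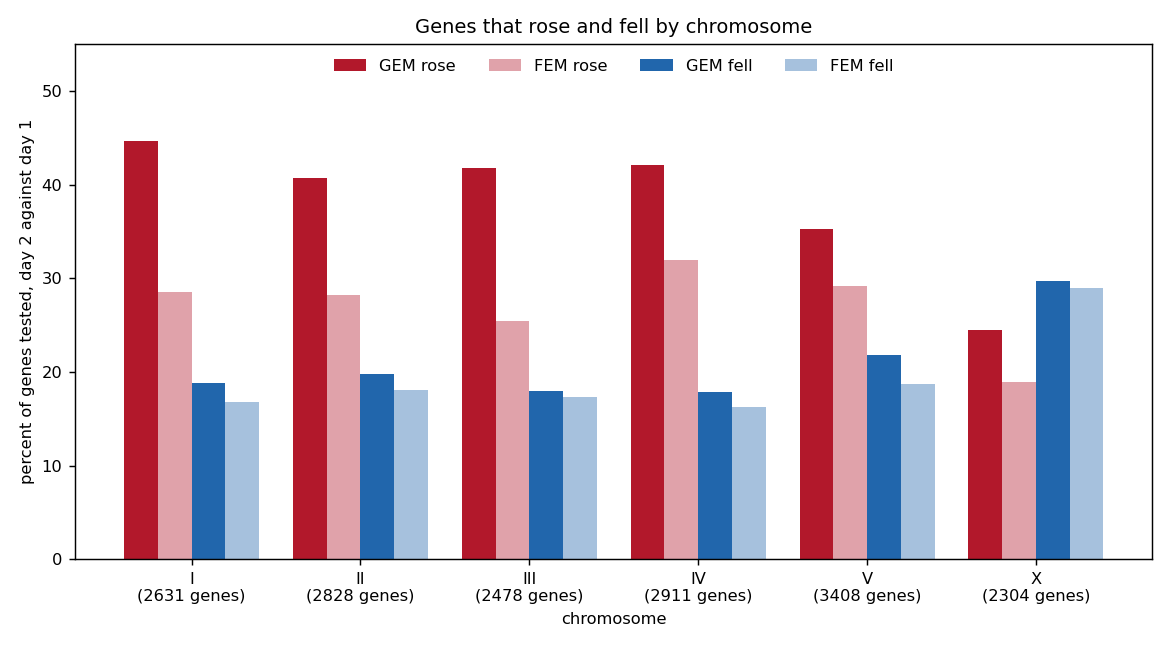
Percent of the genes tested on each chromosome that rose (red) or fell (blue) on day 2 against day 1, with GEM in dark and FEM in light bars. The X chromosome had the smallest share of rises (24.5% in GEM, 18.9% in FEM) and the largest share of falls (29.7% in GEM, 29% in FEM) of the 6 chromosomes.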

How the data were processed

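RNA-sequencing of poly(A)-selected RNA from whole worms gave 45 libraries, 23 FEM and 22 GEM, grouped by strain and age from the sample titles, with 0 columns left unmapped. Per the labels and methods, the authors trimmed reads with Trim Galore 0.4.4, mapped them to WBcel235 with HISAT2 2.1.0 as non-directional single-end reads, counted reads overlapping genes with isoforms merged, and normalized with DESeq2. The deposited table holds the natural log of each normalized count after adding 1, for 25985 genes. The base was read from the values: 98.61 to 100% of low values in the 11 GEM libraries were whole multiples of 1 read within 0.12. Reads cannot be recovered for high values, so count tests were not used, and overlapping genes or near-identical copies can share reads. Dividing by the natural log of 2 gave log2(value + 1), with a pseudocount of 1, so the changes of low genes are understated.

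One limma 3.58.1 model (R 4.3.3) with a mean per strain and age, empirical Bayes moderation with a trend, and Benjamini-Hochberg adjustment was fitted to the 16925 genes averaging 1 or more as deposited, at a threshold of 0.05, and tested on simulated data. Nothing in the labels says that libraries of a group came from separate cultures, so p-values measure the spread between libraries. That spread was 1 estimate per gene from all 45 libraries, both strains and all ages. On day 2 oocyte regulators spanned 8.30 to 11.03 in GEM and 9.04 to 9.26 in FEM. SEs and p-values of such genes can therefore understate the GEM spread. A fit to only the 11 GEM libraries gave 5632 rises and 3157 falls. Gene lists (39) were described by counts and medians with no test over a list. Members and lists were chosen with earlier results of these data known. Genes named are *gon-2*, *gem-1*, and *fem-3*, the 10 largest rises and falls among called genes with non-overlapping GEM libraries and a letter-number name (*msp*, *his*, and *nsp* left out), the 2 largest each way with a sequence name, and up to 2 members per list with the largest called change. Other names were chosen after their values were seen. Names of 24650 genes (94.9%) matched Ensembl release 115, and 3 *cox* list names did not match. Alternatives were other filters, a pseudocount of 8, quantile normalization, median centering, moderation without a trend, fits to fewer libraries, single ages as day 1 or day 2, and leaving out each library. Leaving out GEM 49 h replicate 1 and GEM 73 h replicate 2 together was added after seeing the data. Python 3.11.15, numpy 2.4.6, pandas 2.3.3, and matplotlib 3.10.9 were used.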

Additional observations from a re-analysis of the deposited data

Results flagged for a closer look

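Of 264 sets of values (the 93 named genes and 39 list means, on day 2 and on day 1 in GEM), 11 had a library far from the others of its day, where chance gives about 1 in 20. On day 2 they were GEM 73 h replicate 2 in the early zygotic embryo list (2.70, with the next library at 0.87) and GEM 73 h replicate 1 in *clec-180* (4.86, next 6.30). GEM 65 h replicate 3 was set apart in FMRFamide-like peptides (8.66, next 8.54), desaturases and elongases (10.66, next 10.91), *grd-2* (3.13, next 1.00), *elo-8* (4.73, next 5.63), and *nuo-2* (11.61, next 11.33). On day 1 they were GEM 49 h replicate 1 in the Patched-related list (7.45, next 8.26) and *tbx-37* (0.49, next 0.00), and GEM 41 h replicate 3 in *nuo-2* (12.34, next 11.95) and *pas-5* (11.80, next 11.01).

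For 56 of the 93 named genes the change on day 2 against day 1 differed between GEM and FEM (limma, adjusted p under 0.05), against 26.0% of all genes tested. Most named genes were chosen for a large change in GEM, which also enters this difference, so a high share was built in. The GEM minus FEM difference is given in log2 units. Among oocyte, eggshell, and maternal genes, the difference was 4.37 for *puf-5*, 4.75 for *puf-6*, 2.99 for *perm-4*, 4.85 for *cpg-1*, 4.55 for *pos-1*, 4.41 for *mex-6*, 4.15 for *meg-1*, and 4.56 for *cyp-31A2* (adjusted p 6.8e-10 to 5.02e-05). Among genes of earlier germline stages, the difference was 2.84 for *glh-2*, 3.05 for *deps-1*, 3.80 for *gld-1*, 3.06 for *daz-1*, 3.55 for *htp-2*, and 3.29 for *dsb-1* (adjusted p 2.72e-08 to 4.65e-06). Among cell cycle genes, the difference was 2.09 for *mcm-7*, 2.12 for *orc-1*, 2.44 for *cyb-3*, and 1.24 for *cyb-1* (adjusted p 5.42e-06 to 0.00888). Among sperm, sex determination, and sheath genes, the difference was 1.84 for *spe-11*, 1.51 for *gsp-3*, 2.63 for *fem-3*, 2.36 for *fog-2*, and 2.43 for *inx-8* (adjusted p 4.36e-07 to 0.00968). Among yolk, uterine, and *dct* genes, the difference was 2.82 for *vit-5*, 2.82 for *vit-4*, 2.68 for *ule-1*, 4.27 for *ule-5*, 4.51 for *ule-3*, and 2.09 for *dct-7* (adjusted p 3.71e-06 to 0.0073). Among genes for metabolism, ribosome, and proteasome, the difference was 2.26 for *gpd-4*, 1.69 for *gpd-1*, 0.89 for *asb-1*, 1.63 for *rpl-11.1*, 0.65 for *rpn-6.2*, -0.60 for *pas-5*, 1.40 for *elo-8*, and -2.96 for *elo-4* (adjusted p 1.77e-09 to 0.0172). Among molting genes and other genes that fell, the difference was -2.99 for *mlt-9*, -2.30 for *qua-1*, -2.46 for *ptr-4*, -2.35 for *ptr-10*, -2.0 for *clec-180*, -3.42 for T06G6.6, and -3.16 for C14A4.9 (adjusted p 0.000806 to 0.0472). Among muscle, basement membrane, neuropeptide, and intestinal genes, the difference was 1.21 for *tni-1*, 0.74 for *unc-52*, -0.49 for *fbl-1*, 0.71 for *flp-28*, 1.61 for *pept-1*, and -2.37 for *cpr-1* (adjusted p 0.000101 to 0.0252). Among insulin-like, detoxification, receptor, and heat shock genes, the difference was 4.94 for *ins-39*, -3.58 for *ins-35*, -2.19 for *ugt-16*, -5.13 for *nhr-234*, 2.44 for *nhr-2*, and 1.54 for *hsp-12.3* (adjusted p 5.65e-08 to 0.021).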

How the results depend on the processing

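Leaving out each of the 11 libraries in turn gave 5836 to 6611 rises and 3051 to 3403 falls in GEM, and 2340 to 3208 higher and 1330 to 1512 lower changes than in FEM. With 49 h alone as day 1 the falls numbered 2252, against 3497. Between 73 and 65 h, median centering gave 891 rises and 611 falls and quantile normalization 576 falls, against 1792 rises and 153 falls. With a pseudocount of 8, 2571 GEM changes were higher and 2095 lower than in FEM. Quantile normalization gave 5934 rises and 4533 falls between day 2 and day 1. No call of a named gene reversed under any of the 24 settings tried, and 9 genes lost a call, in 24 combinations of gene and setting. Against 49 h alone these were *gem-1* (0.27), *inx-9* (0.76), *cat-2* (-0.91), *unc-47* (-0.91), *cpr-1* (1.16), *ins-35* (-1.45), *gst-14* (1.13), *hsp-12.6* (1.47), and *rpl-42* (0.88). *gst-14* also lost its call without GEM 49 h replicate 2 (1.01) or GEM 73 h replicate 2 (1.12). The cause of these shifts was not tested. No paired analysis was possible because the labels carry no replicate numbers that link libraries of different ages. The low levels of sperm and embryo genes rest on few reads, since 1 read was worth a normalized count of 0.412 to 1.65 in these libraries, and changes there are less certain than those of abundant genes.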

Other observations

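Some gene classes outside the lists are described here, grouped by name and picked after the values were seen. Of all genes tested, 38.3% rose and 20.7% fell in GEM, and 27.3% rose and 18.9% fell in FEM. All 12 *abu* genes tested, which encode glutamine- and asparagine-rich secreted proteins, fell in GEM (median -5.17, and 11 of 12 fell in FEM). The cuticulin-like *cutl* genes fell in 21 of 26 cases and rose in 1 (median -1.81), and the astacin protease *nas* genes fell in 19 and rose in 8 of 32. Histone genes fell in 19 and rose in 5 of 35, although replication-dependent histone mRNA lacks a poly(A) tail and members share near-identical sequences. Nicotinic receptor *acr* genes fell in 9 of 21 cases in GEM and in 1 in FEM, with 6 changes lower in GEM.

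Upward, *him* genes, many of which act in meiosis, rose in 10 of 11 cases (median 1.74), and the MATH domain *bath* genes rose in 25 of 36 cases (median 1.47), with 20 changes higher in GEM than in FEM. T-box *tbx* genes rose in 8 of 10 cases (median 2.86). Subunits of the general transcription factor TFIID, the *taf* genes, rose in 13 of 17 cases in GEM and in none in FEM, where 1 fell, with 7 changes higher in GEM. Mediator *mdt* genes rose in 16 of 20 and nucleoporin *npp* genes in 15 of 25. The *nspc* genes, a nematode-specific peptide family with near-identical copies, fell in 5 of 17 cases in GEM and rose in 12 in FEM, with 12 changes lower in GEM. These counts carry no test over a class.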
